A study of Mus musculus with 4 samples.

Results

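The genes of cholesterol synthesis, uptake and efflux were followed in mouse aortic smooth muscle cells given prostaglandin E2 (PGE2). The set was a fixed list of 32 genes, taken by gene symbol in pathway order. Of these, 31 had at least 1 probe in the table, among 27278 named genes in all, and Acat2 was not analysed here. A further gene, Abcg1, did not pass the filter on dim probes, so 30 of the 32 were tested. The arrays held 2 cultures given PGE2, described with a time of 24 h, and 2 control cultures left untreated for 24 h, with 1 single-colour Agilent array each. All 4 cultures were aortic vascular smooth muscle cells of the C57BL/6J strain grown out of explanted adult aorta, and all carried the genotype given as EP4-Tg. EP4 is one of the receptors for PGE2 and acts through Gs and cyclic AMP. The sources used here give neither the promoter of the transgene nor the PGE2 dose. The comparison therefore asks how EP4-Tg cells differed with PGE2, and other genotypes were not analysed here.

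Cells build cholesterol from acetyl-CoA through mevalonate, the isoprenoid farnesyl diphosphate, squalene and lanosterol. Most enzymes of the route are transcribed under SREBP2, a factor held in the endoplasmic reticulum by SCAP and INSIG proteins when sterol is plentiful and released to the nucleus when it is scarce. Excess sterol is met by the liver X receptors (LXR), which switch on the ABC transporters that export cholesterol to lipoproteins. In the artery wall the balance between synthesis, uptake and efflux is known to bear on how much lipid smooth muscle cells store.

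Between 47.9% and 53.8% of the 59305 non-control spots were well above background on each array, and 0 were saturated. Over all tested genes the 2 PGE2 arrays correlated at 0.978, the 2 control arrays at 0.974, and arrays of different groups at 0.943 to 0.958. Signals are given as log2 of the processed intensity minus the array's 75th percentile, called the log2 signal, and changes as the PGE2 mean minus the control mean with the standard error of a limma fit (n = 2 per group). Over 17657 tested genes or unnamed probes, 70 were higher (0.396%) and 48 lower (0.272%) with PGE2 at an adjusted p under 0.05, which is 0.668% of them together. Of 8 smooth muscle markers, 4 were above background on both arrays of each group (Acta2, Tagln, Cnn1 and Smtn), and Myocd was above it on no array. The same held for 5 of 6 fibroblast, 3 of 6 macrophage, 1 of 6 endothelial and 1 of 4 adipocyte markers. The linear signal summed over the smooth muscle markers, in multiples of the array's 75th percentile, was 129 and 173 in the PGE2 cultures and 714 and 407 in control cultures 1 and 2. The fibroblast sum was 23.2 and 25.5 in the PGE2 cultures and 201 and 90.9 in control cultures 1 and 2. It was mostly Dcn, and Pi16 and Pdgfra of the same list stood higher with PGE2, at log2 changes of 2.78 ± 0.43 and 0.60 ± 0.75 (adjusted p = 0.0962 and 0.712, limma). The macrophage sum lay at 4.33 to 6.51 in PGE2 cultures and 3.63 to 4.17 in control cultures, the endothelial sum at 0.178 to 0.284 in PGE2 cultures and 0.226 to 0.464 in control cultures, and the adipocyte sum at 0.309 to 0.324 in PGE2 cultures and 0.349 to 0.367 in control cultures. In such bulk samples fewer cells of a type and less RNA per cell cannot be told apart.

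None of the 30 tested genes passed the threshold with PGE2, against 0.668% of all tested genes, and their adjusted p values ran from 0.125 to 0.936 (limma with Benjamini-Hochberg adjustment). At an unadjusted p under 0.05 stood 4 of 30 (13.3%), with Sqle, Cyp51 and Mvk lower and Nr1h3 higher, while 17.9% of all tested genes did. Both PGE2 arrays lay below both control arrays in 12 of the 30 genes (40.0%), against 28.3% of all tested genes. They lay above both in 5 genes (16.7%), against 24.0%. On the authors' scaled signal the counts were 8 below and 9 above, against 14.1% and 47.7% of all tested genes. Without control 1 they were 13 and 13, against 40.1% and 41.5%, so the larger number below than above was not seen there. The median log2 change was -0.18 over the 30 genes and -0.03 over all tested genes. Among the 19 tested synthesis enzymes the median was -0.51, 13 had a value below 0 (52.7% of all tested genes did), and both PGE2 arrays lay below both control arrays in 9 (47.4%). Among the 11 tested genes of control, transport and efflux the median was 0.10. No test was made of the lists as such.

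**Figure D1:**
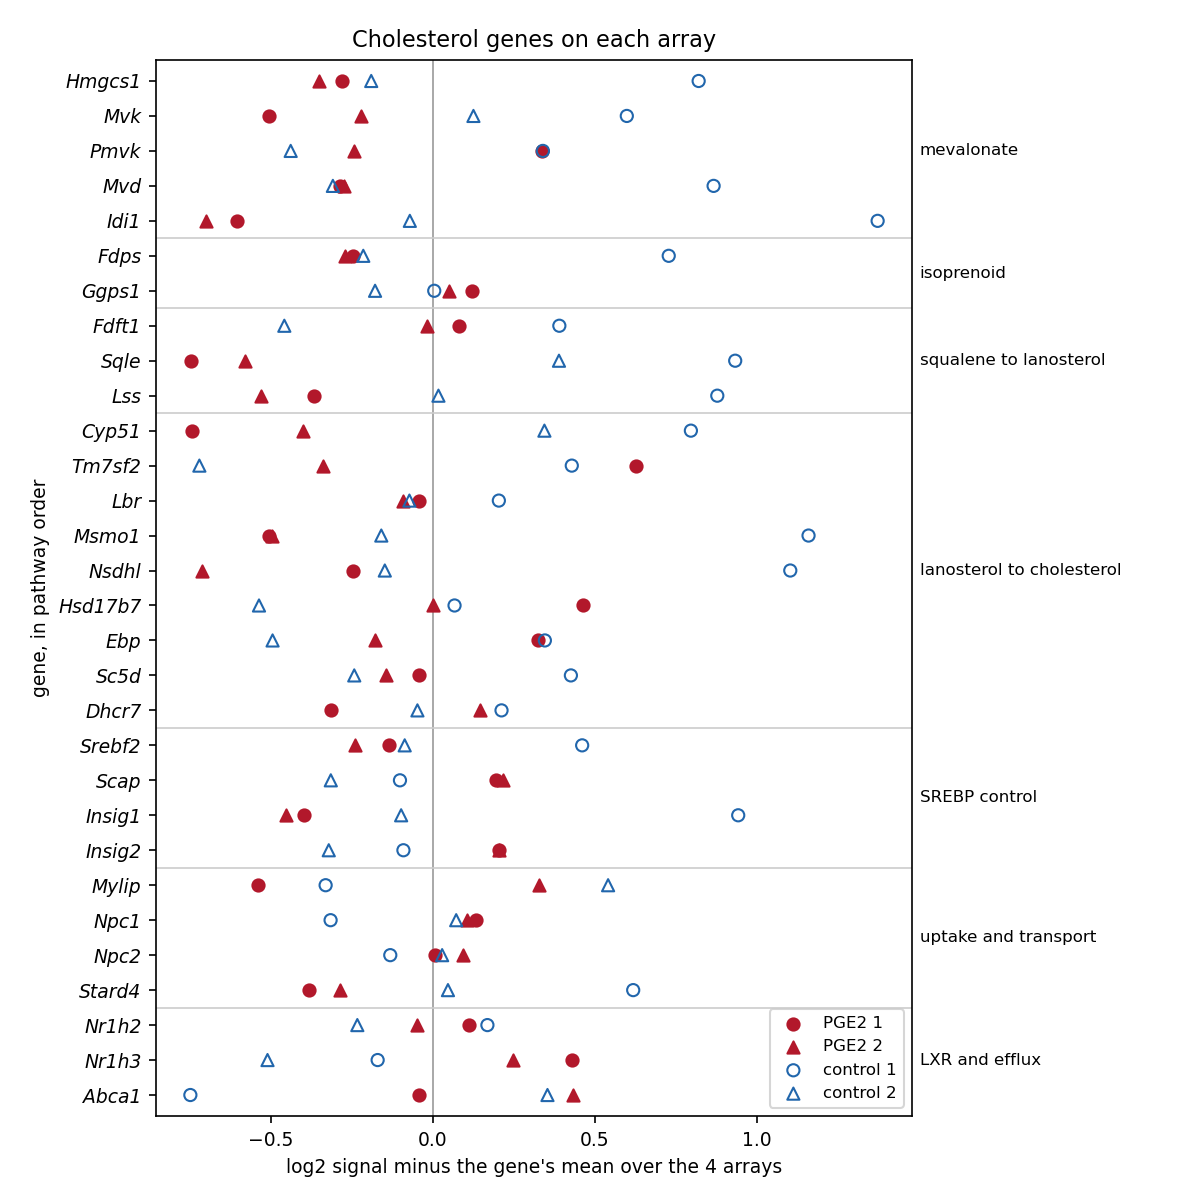
The log2 signal of each of the 30 tested genes on the 4 arrays, as the difference from that gene's mean over the arrays, in pathway order; filled symbols are PGE2 cultures, open symbols control cultures, circles replicate 1 and triangles replicate 2. Control 1 is the highest of the 4 arrays in 16 of the 19 synthesis enzymes, and in 12 of the 30 genes both PGE2 symbols lie left of both control symbols.

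The first stage leads from acetyl-CoA to isopentenyl diphosphate. Hmgcs1 encodes the synthase that makes HMG-CoA, the precursor of mevalonate. Its log2 signal was 3.47 and 3.40 in the PGE2 cultures, against 4.57 and 3.56 in control cultures 1 and 2. The groups did not overlap, but control 2 lay much closer to the PGE2 cultures than to control 1, and the change was -0.63 ± 0.38 (adjusted p = 0.459). Mvk, the gene of mevalonate kinase, had 2.45 and 2.73 in the PGE2 cultures and 3.55 and 3.08 in the control cultures. Both of its controls stood above both PGE2 cultures, with a change of -0.73 ± 0.24 (unadjusted p = 0.0385, adjusted p = 0.256, limma). A second Mvk probe gave -0.75.

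Pmvk, for the phosphomevalonate kinase of the next step, overlapped between the groups, at 3.23 and 2.65 in the PGE2 cultures and 3.23 and 2.45 in the control cultures (change 0.10 ± 0.37). Mvd, for the decarboxylase that follows, had -0.45 and -0.44 in the PGE2 cultures and 0.70 and -0.47 in the control cultures. In Mvd the second control lay just below both PGE2 cultures, and its change of -0.56 ± 0.43 was 0.0278 without control 1. Idi1 encodes the isomerase that makes dimethylallyl diphosphate, the starter of isoprenoid chains. It had 0.91 and 0.82 in the PGE2 cultures, against 2.89 and 1.45 in the control cultures. The 2 PGE2 values lay 0.09 apart and the 2 control values 1.44 apart. The change of -1.30 ± 0.52 (adjusted p = 0.309) had a 95% interval from -2.74 to 0.13, and was -0.58 without control 1 and -2.02 without control 2.

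At the isoprenoid branch, Fdps makes farnesyl diphosphate and Ggps1 extends it to geranylgeranyl diphosphate. Fdps had 3.53 and 3.51 in the PGE2 cultures and 4.50 and 3.56 in the control cultures, a change of -0.51 ± 0.36 (adjusted p = 0.512) that was -0.04 without control 1. Ggps1 had 1.69 and 1.62 in the PGE2 cultures and 1.57 and 1.39 in the control cultures. It was the only synthesis gene with both PGE2 cultures above both controls (0.17 ± 0.16, adjusted p = 0.628), though its 6 probes ranged from -0.23 to 0.34.

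From squalene onward the route makes only sterols. Fdft1 encodes squalene synthase, Sqle squalene epoxidase, a rate-limiting oxygen-dependent step, and Lss the synthase that closes the ring to lanosterol. Sqle had a log2 signal of 3.42 and 3.59 in the PGE2 cultures, against 5.10 and 4.56 in the control cultures. The groups were further apart than either pair of replicates. Its change of -1.32 ± 0.25 is a PGE2 to control ratio of 0.399, with an unadjusted p of 0.00527 and the smallest adjusted p of the 30 genes (0.125, limma). The interval ran from -2.0 to -0.65, and the change was -1.05 without control 1 and -1.60 without control 2. The other Sqle probe was too dim to be kept in either group.

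Lss had 0.37 and 0.20 in the PGE2 cultures, against 1.61 and 0.75 in the control cultures, a change of -0.90 ± 0.34 (adjusted p = 0.289). All 3 of its probes were lower with PGE2, from -1.45 to -0.82. Fdft1, which lies between Fdps and Sqle in the route, did not separate the groups, at 3.62 and 3.52 in the PGE2 cultures and 3.93 and 3.08 in the control cultures (0.07 ± 0.33, interval -0.84 to 0.97).

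The last stage turns lanosterol into cholesterol. Cyp51 encodes lanosterol 14-alpha demethylase, the P450 enzyme that opens it. It had 0.84 and 1.18 in the PGE2 cultures, against 2.38 and 1.93 in the control cultures. Both controls stood clear of both PGE2 cultures, and the change was -1.14 ± 0.25, a ratio of 0.453 (unadjusted p = 0.00892, adjusted p = 0.152, limma). A second, dimmer probe gave -1.0, and the change was -0.92 without control 1. Msmo1, listed as Sc4mol, and Nsdhl encode the oxidase and dehydrogenase that remove the C4 methyl groups. Msmo1 had 3.14 and 3.15 in the PGE2 cultures and 4.81 and 3.49 in the control cultures. Nsdhl had -0.01 and -0.47 in the PGE2 cultures and 1.34 and 0.09 in the control cultures. Neither pair of groups overlapped, and in both the 2 controls differed by more than the groups did, with changes of -1.0 ± 0.48 and -0.96 ± 0.49 (adjusted p = 0.370 and 0.393). They were -0.34 and -0.33 without control 1.

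On their brightest probes, the other 6 genes of the stage overlapped between the groups. Tm7sf2 and Lbr, which both encode a sterol C14 reductase, stood at 0.29 ± 0.54 and -0.13 ± 0.18. Hsd17b7, for the 3-ketosteroid reductase, had 1.94 and 1.48 in the PGE2 cultures and 1.54 and 0.94 in the control cultures, the largest positive change among the synthesis genes at 0.47 ± 0.30. Ebp, the sterol isomerase gene, stood at 0.15 ± 0.37, and Sc5d and Dhcr7, for the desaturase and the reductase that follow it, stood at -0.19 ± 0.28 and -0.17 ± 0.24. A second, dimmer Sc5d probe, also above background on all 4 arrays, gave -0.57. Its PGE2 values of 0.58 and 0.56 lay below both controls, at 1.37 and 0.91. By the brightest probes, the genes below -0.5 were therefore spread along the route rather than grouped at 1 step. Pmvk, Ggps1, Fdft1 and the other 6 late enzymes lay above -0.5. Hmgcs1, Mvk, Mvd, Idi1, Fdps, Sqle, Lss, Cyp51, Msmo1 and Nsdhl lay below it. That is 10 of 19, against 16.4% of all tested genes. Without control 1, only Idi1 (-0.58), Sqle (-1.05) and Cyp51 (-0.92) of these enzymes stayed below -0.5.

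**Figure D2:**
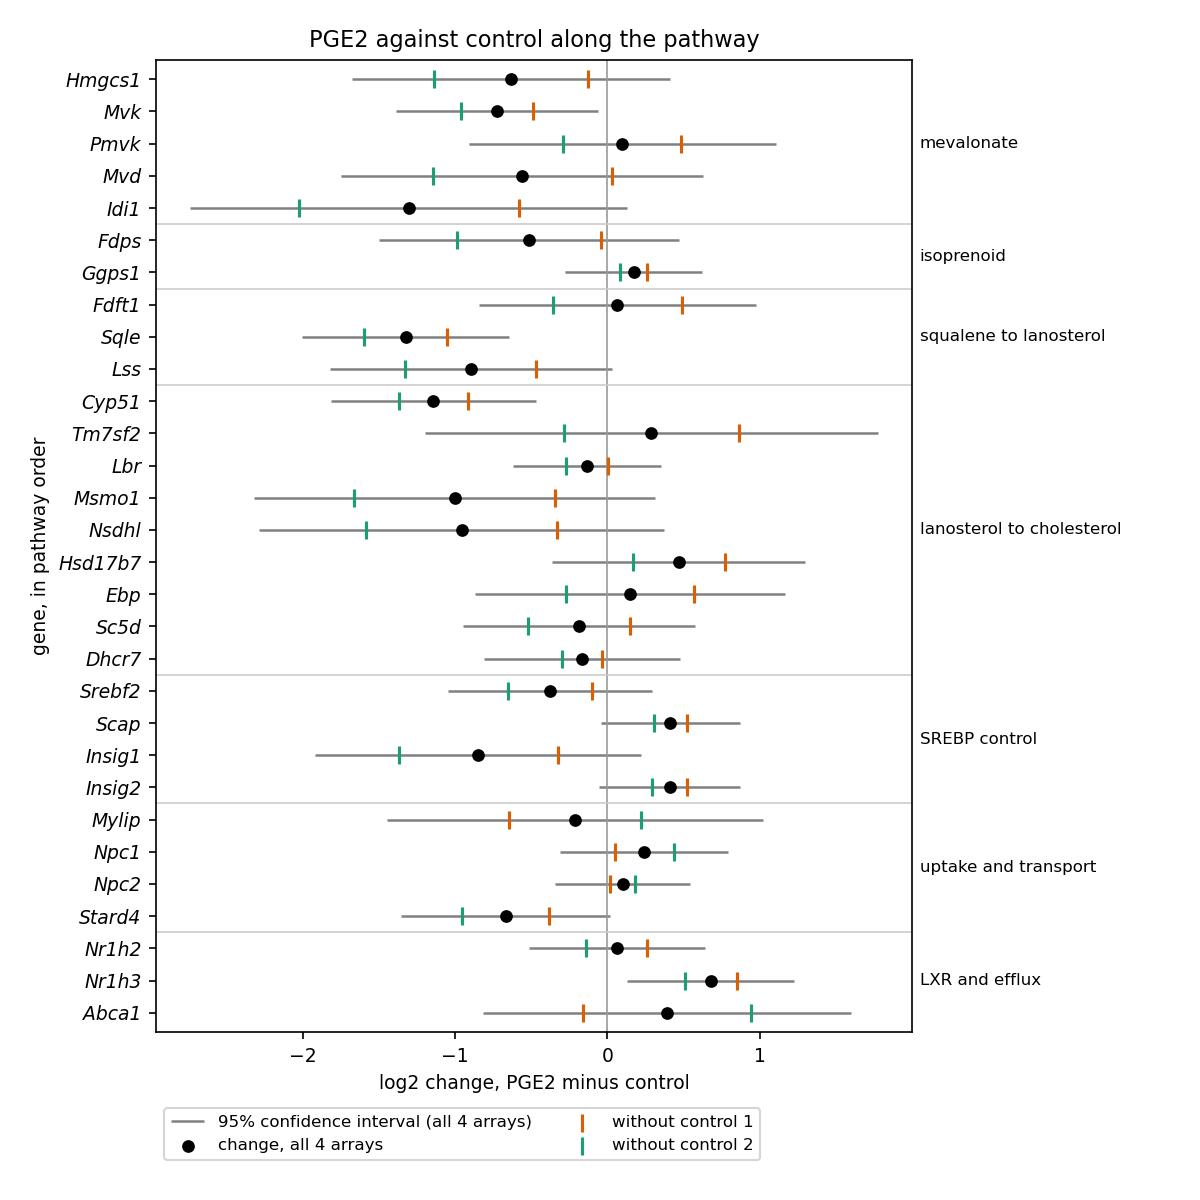
The log2 change of each gene, PGE2 minus control, in pathway order, with its 95% confidence interval (black point and grey line) and the change without control 1 (orange) or without control 2 (green). The intervals of Sqle, Cyp51, Mvk and Nr1h3 leave out 0, and in most synthesis enzymes the orange mark lies nearer to 0 than the green one.

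The 2 control cultures were not alike in these genes. Control 1 was above control 2 in 19 of 19 tested synthesis enzymes, against 61.0% of all tested genes, by a median of 0.84 on the log2 scale, while the PGE2 cultures differed by a median of 0.07. Control 1 was the highest of the 4 arrays in 16 of the 19, against 35.1% of all tested genes. The median change of the 19 enzymes was accordingly -0.04 without control 1, with 10 of 19 below 0. Over all tested genes it was then 0.01, with 8619 of 17657 below 0. Without control 2 the median of the enzymes was -0.96, with 17 of 19 below 0. Over all tested genes it was then -0.05, with 9758 of 17657 below 0. Sqle, Cyp51, Idi1, Mvk and Lss kept changes of -1.05, -0.92, -0.58, -0.49 and -0.47 against control 2 alone. The smooth muscle and fibroblast marker sums given above had the same order, control 1 above control 2 above both PGE2 cultures, and their part in the enzymes' values was not tested. That order was the one of Acta2, Tagln, Dcn and Lum, which make up most of the sums, and of the dim Col14a1, while Cnn1, Smtn, Pdgfra and Pi16 were lower in control 1 than in control 2.

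**Figure D3:**
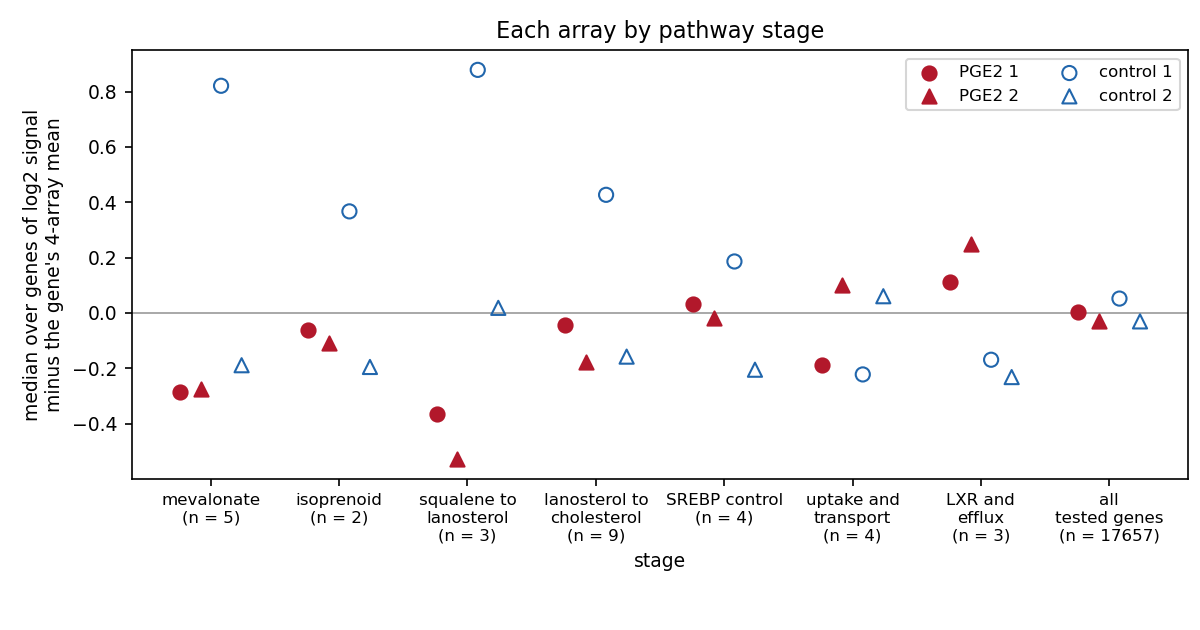
For each pathway stage and for all 17657 tested genes, the median over genes of the log2 signal minus the gene's 4-array mean, on each array (filled red, PGE2; open blue, control; circles replicate 1, triangles replicate 2). Control 1 stands at 0.82 in the mevalonate stage and 0.88 from squalene to lanosterol, while control 2 stands at -0.19 and 0.02 and the PGE2 cultures between -0.53 and -0.27.

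The promoters of the synthesis enzymes were compared with those of other genes by their letters. SREBP2 is known to act through the sterol response element (SRE) together with NF-Y, which binds the CCAAT box. RefSeq windows of build GRCm38.p6, from 250 bases before to 50 after each annotated start, were found for 26 of the 32 genes. Fdps, Fdft1, Sqle, Npc1, Stard4 and Abcg1 had none, so Sqle, the gene with the lowest change, is missing from these counts. On either strand, CCAAT stood in a window of 16 of 16 tested synthesis enzymes, against 5 of 9 tested genes of control, transport and efflux and 41.1% of 27025 genes in the table. It was as present in enzymes that overlapped between the groups, such as Ebp and Hsd17b7, as in those that did not. The SRE letters TCACNCCAC stood in 1 of the 26, Hmgcs1, against 1.44% of all genes. The GC box letters GGGCGG stood in 14 of the 16 enzymes and 7 of the 9 other tested genes, against 38.2% of genes in the table. The cyclic AMP response element core TGACG stood in 7 of 16 and 4 of 9, against 23.1%. Neither was thus particular to the enzymes. No matches of different motifs shared a base in these windows, and a match is a description of the sequence and not of binding. The windows of 4 genes are given 5′ to 3′, because they belong to the gene with the SRE letters and to the 3 enzymes with a window whose changes were furthest below 0. Capitals mark CCAAT on either strand (ATTGG where it lies on the other one) and, in Hmgcs1, the SRE letters.
Hmgcs1 (chr13:119690101-119690400, plus strand): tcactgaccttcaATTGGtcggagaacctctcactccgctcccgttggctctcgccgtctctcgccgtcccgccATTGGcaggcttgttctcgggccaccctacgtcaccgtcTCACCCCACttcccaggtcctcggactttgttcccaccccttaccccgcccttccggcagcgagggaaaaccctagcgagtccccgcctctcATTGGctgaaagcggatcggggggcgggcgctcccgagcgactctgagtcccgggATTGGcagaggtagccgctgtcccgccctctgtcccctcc
Idi1 (chr13:8885356-8885655, plus strand): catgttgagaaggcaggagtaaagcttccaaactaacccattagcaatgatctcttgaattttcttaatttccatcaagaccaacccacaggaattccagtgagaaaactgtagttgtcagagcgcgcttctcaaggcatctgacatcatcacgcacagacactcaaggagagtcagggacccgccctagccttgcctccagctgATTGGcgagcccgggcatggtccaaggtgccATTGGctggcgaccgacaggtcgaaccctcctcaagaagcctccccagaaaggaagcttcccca
Cyp51 (chr5:4104648-4104947, minus strand): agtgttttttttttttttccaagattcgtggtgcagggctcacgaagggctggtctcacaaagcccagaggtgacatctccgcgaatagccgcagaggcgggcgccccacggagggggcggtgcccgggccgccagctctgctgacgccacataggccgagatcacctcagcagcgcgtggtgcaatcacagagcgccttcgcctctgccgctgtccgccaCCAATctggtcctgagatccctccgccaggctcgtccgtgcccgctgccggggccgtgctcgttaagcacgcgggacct
Msmo1 (chr8:64733529-64733828, minus strand): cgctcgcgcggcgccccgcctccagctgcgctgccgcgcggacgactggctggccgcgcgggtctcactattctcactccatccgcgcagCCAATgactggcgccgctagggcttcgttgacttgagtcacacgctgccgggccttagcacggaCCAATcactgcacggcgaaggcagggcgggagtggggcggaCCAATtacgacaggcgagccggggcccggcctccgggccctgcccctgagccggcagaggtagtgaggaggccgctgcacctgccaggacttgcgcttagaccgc
The SRE letters of Hmgcs1 begin 137 bases before the start. The 3 CCAAT boxes of Msmo1 begin 160, 96 and 55 bases before it, those of Idi1 45 and 14 bases before it, and the single one of Cyp51 29 bases before it.

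**Figure D4:**
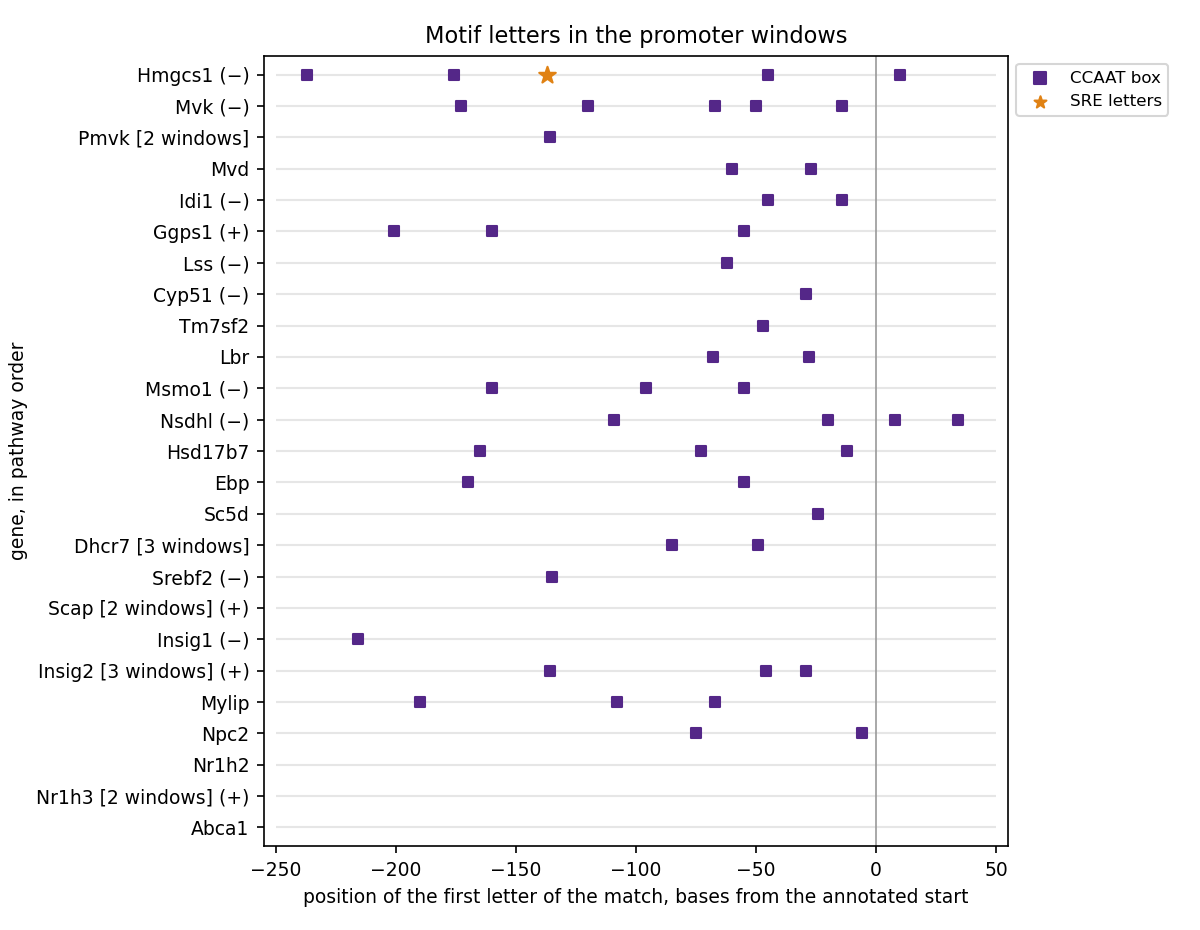
Positions of CCAAT (purple squares, either strand) and of the SRE letters (orange star) in the promoter windows of the 25 tested genes that have one, in bases from the annotated start, all windows of a gene on 1 line. A minus sign after the name marks genes with both PGE2 arrays below both controls and a plus sign those above; each of the 16 synthesis enzymes shows at least 1 square, while Scap, Nr1h2, Nr1h3 and Abca1 show none.

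The genes that control SREBP did not move one way. Srebf2, which encodes SREBP2 itself, had 1.69 and 1.59 in the PGE2 cultures, against 2.29 and 1.74 in the control cultures, a change of -0.38 ± 0.24 (adjusted p = 0.487). Its second probe gave -0.04. Insig1, an INSIG gene that is itself an SREBP target, had -1.49 and -1.55 in the PGE2 cultures, against -0.15 and -1.19 in the control cultures. Like 16 of the 19 tested enzymes, Insig1 had its highest value in control 1. Its change of -0.85 ± 0.39 (adjusted p = 0.357, limma) was -0.33 without that culture.

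Insig2, whose product has the same retaining role but whose gene is known not to depend on SREBP, lay the other way. It had 2.45 and 2.44 in the PGE2 cultures and 2.15 and 1.92 in the control cultures, a change of 0.41 ± 0.17 (adjusted p = 0.317), and its 3 probes gave 0.41 to 0.49. Scap, for the SREBP escort protein, had 4.29 and 4.31 in the PGE2 cultures and 3.99 and 3.78 in the control cultures (0.41 ± 0.17, adjusted p = 0.308). In both genes the PGE2 cultures lay closer together than the controls and above both of them, and neither change passed the threshold.

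Of the uptake and transport genes, Stard4 encodes a sterol carrier that is an SREBP target. It had -0.78 and -0.69 in the PGE2 cultures, against 0.22 and -0.35 in the control cultures. Both PGE2 cultures thus lay below both controls, as in 9 of the 19 tested enzymes. The change was -0.67 ± 0.25 (adjusted p = 0.288, limma), and -0.38 without control 1. Npc1 and Npc2 encode the membrane and the soluble protein that carry cholesterol out of the lysosome. Npc1 had 2.19 and 2.17 in the PGE2 cultures and 1.74 and 2.13 in the control cultures, barely above the nearer control (0.24 ± 0.20). A dimmer probe, also above background on all 4 arrays, gave 0.02. Npc2 overlapped and differed by 0.10 ± 0.16 (interval -0.34 to 0.54). Mylip, an E3 ubiquitin ligase that marks lipoprotein receptors for breakdown and an LXR target, had 0.14 and 1.00 in the PGE2 cultures and 0.35 and 1.22 in the control cultures. Replicate 2 stood well above replicate 1 in each group, and the change was -0.21 ± 0.45.

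Of the LXR and efflux genes, Nr1h3 encodes LXR alpha and Nr1h2 LXR beta. Nr1h3 had 2.22 and 2.04 in the PGE2 cultures, against 1.63 and 1.29 in the control cultures. Both PGE2 cultures stood above both controls, with a change of 0.68 ± 0.20, a ratio of 1.60 (unadjusted p = 0.0258, adjusted p = 0.223, limma). It was 0.85 without control 1 and 0.51 without control 2, and its second probe gave 0.64. Nr1h2 overlapped, at 4.64 and 4.48 in the PGE2 cultures and 4.69 and 4.29 in the control cultures (0.06 ± 0.21).

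Abca1 encodes the transporter that loads cholesterol onto lipid-poor apolipoprotein. It had 1.37 and 1.84 in the PGE2 cultures and 0.66 and 1.76 in the control cultures, so the groups overlapped (0.39 ± 0.44, interval -0.82 to 1.60), and the change was -0.16 without control 1. Abcg1, for the transporter that passes cholesterol to mature particles, was near the detection limit. Its probe read -4.14 and -2.31 in the PGE2 cultures and -4.21 and -3.78 in the control cultures and was well above background in PGE2 culture 2 only, so no change is given.

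The probes of a gene were compared where they were well above background on all 4 arrays, which left out 3 kept probes that passed through 1 group only. Of 16 genes with more than 1 such probe, 14 had them all on 1 side of 0, and the exceptions were Ggps1 and Fdft1, both with small changes. The 2 probes of Msmo1 gave -1.06 and -1.0, and those of Sc5d -0.57 and -0.19.

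**Figure D5:**
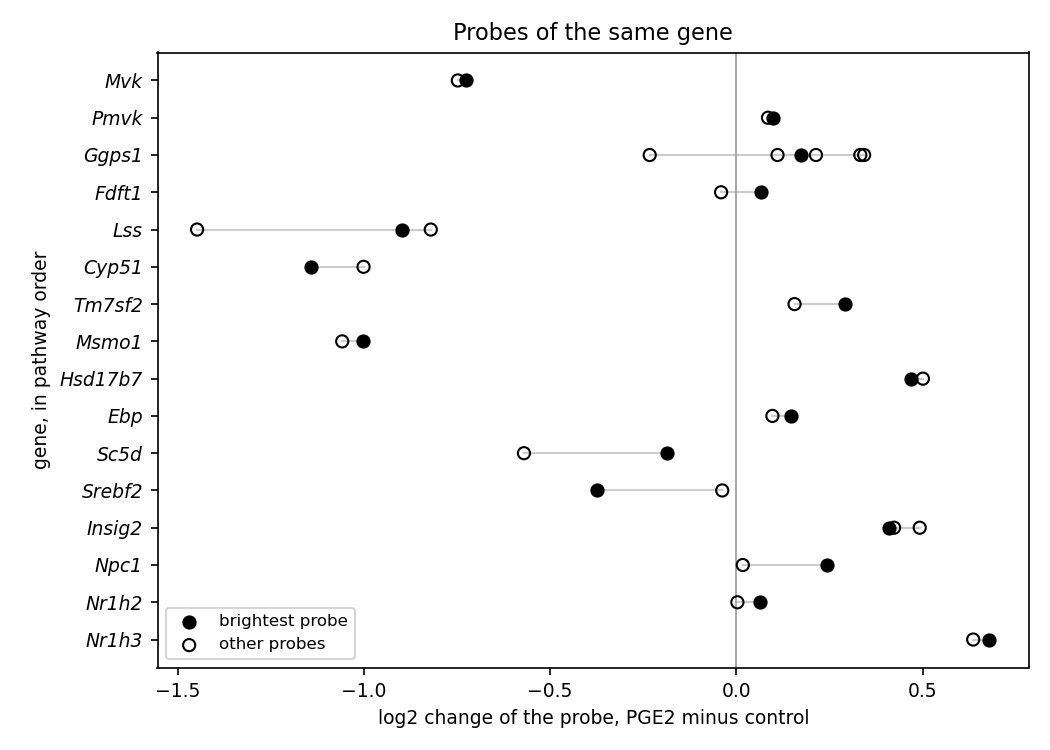
The log2 change, PGE2 minus control, of every probe well above background on all 4 arrays, for the 16 genes with more than 1 (filled, the brightest probe, which stands for the gene; open, the others). All such probes of Mvk, Lss, Cyp51 and Msmo1 lie below -0.7 and all those of Insig2 and Nr1h3 above 0.4.

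Among 36 tested other genes of sterol and isoprenoid metabolism, 0 passed the threshold (0.668% of all tested genes did), 5 were higher and 2 lower at an unadjusted p under 0.05 (7.31% and 10.5% of all tested genes), and the median change was 0.09. The 4 with the smallest p all stood higher. Stard5, a sterol carrier that unlike Stard4 is not under SREBP, had -0.68 and -0.84 in the PGE2 cultures and -1.89 and -1.90 in the control cultures (1.13 ± 0.16, adjusted p = 0.0858, limma). Srebf1, the gene of the fatty-acid regulator SREBP1, had 6.01 and 5.93 in the PGE2 cultures and 4.96 and 4.99 in the control cultures (0.99 ± 0.15, adjusted p = 0.0950, limma). Gramd1a, for a protein that moves cholesterol from the plasma membrane to the endoplasmic reticulum, and Lipa, for lysosomal acid lipase, stood at 0.86 ± 0.17 and 0.68 ± 0.16. In these 4 genes the 2 control cultures differed by 0.23 at most, in Gramd1a. A choice by the smallest p favours genes whose replicates lie close together.

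The 8 other LXR targets, which include Srebf1 again, had 0 called genes (0.668% of all tested genes were called) and a median change of 0.12. At an unadjusted p under 0.05, 2 were higher, Srebf1 being one of them, and 2 lower, against 7.31% and 10.5% of all tested genes. Scd1, a fatty acid desaturase gene, had 3.81 and 3.14 in the PGE2 cultures and 2.42 and 2.17 in the control cultures (1.18 ± 0.29, adjusted p = 0.175, limma), on the same side as Srebf1. Pltp, the phospholipid transfer protein gene, had -1.19 and -1.09 in the PGE2 cultures and 0.96 and 0.36 in the control cultures (-1.80 ± 0.26, adjusted p = 0.0876, limma). Smpdl3a, a phosphodiesterase gene, stood at -1.25 ± 0.17 (adjusted p = 0.0820, limma). The genes known as LXR targets thus lay on both sides of 0.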

How the data were processed

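Total RNA of 4 cultures was labelled with Cy3 and hybridised to 1 array each, and groups were taken from the sample titles. The deposited spot intensity values came from Agilent Feature Extraction, version 11.5.1.1 per the file headers (protocol GE1_1105_Oct12, probes placed on mm9) and 12.0.3.1 per the submitters' processing notes. The authors' scaled signal in the deposited series-wide file is the same processed intensity multiplied by a constant for each array (0.945 to 1.07), and served for gene symbols and as an alternative. Its 4 columns of detection calls were not used. Gene symbols were updated through gene IDs of the RefSeq annotation (44970 of 47700 named spots matched).

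Control spots and outlier spots were left out (158 of 56605 probes lost all spots on an array) and spots of a probe were averaged. The log2 processed intensity was centred on each array's 75th percentile, so a change shared by most genes would not show. Probes well above background on both arrays of a group were kept (26097), and the brightest stood for its gene. PGE2 was compared with control in limma 3.58.1 (R 4.3.3), on 2 residual and 2.15 prior degrees of freedom, and p values were adjusted after Benjamini-Hochberg over 17657 genes or unnamed probes at 0.05. The steps were tested on simulated data in which 200 of 17657 genes were changed. There, 0.0746% of true log2 changes of 1, 20.6% of 2 and 81.1% of 4 were called. In that setting, changes of the size fitted for the cholesterol genes would seldom pass the threshold. The shares called with other numbers of changed genes were not tested. A gene not called may still have changed. The series text names the cultures biological replicates without tying equal numbers to a shared preparation, and no block was fitted. With 2 arrays in a group, precision is limited throughout. The members and lists were chosen with earlier results of these data known. Of the 32 members, the 31 with a probe in the table were described. From the other lists, the called genes and up to 4 with the smallest p were named. The alternatives were other scalings, background corrections, filters and probe choices, a variance trend, the replicate number as a block, and each array left out. No scanner file held the mean spot signal, so normexp (offset 50) used the median one, a choice made after seeing the data.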

Additional observations from a re-analysis of the deposited data

How the results depend on the processing

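No cholesterol gene was called under the main settings or any of the 14 alternatives, and 19 of 30 genes kept their sign under all 14. In the fits of all 4 arrays, 2 to 9 of the 30 or 31 tested had an unadjusted p under 0.05 (limma). The 2 came without the filter on dim probes, where 2685 of all 37436 tested did. The 9 came with either normexp fit or the variance trend, where 3350 to 3422 of all 17657 did. The smallest adjusted p of a cholesterol gene was 0.0634 (Sqle, normexp with quantile normalization). On the authors' scaled signal, where the median of all tested genes shifted to 0.23, the cholesterol median was 0.0825, which is -0.15 relative to that shift as with the main scaling, and Lbr, Sc5d, Dhcr7 and Mylip turned to 0.13, 0.0730, 0.0921 and 0.0465. Without the filter on dim probes the median of all tested genes was -0.33, and the cholesterol median of -0.17 lay 0.16 above it. Limma called 0 higher and 0 lower genes on the authors' signal (4204 at an unadjusted p under 0.05) and without the filter (2685), 39 higher and 15 lower with the filter for all 4 arrays, and 88 higher and 84 lower with the replicate block, where the cholesterol count stayed at 0. Equal numbers are not known to pair the cultures, although deviations of equally numbered cultures correlated at 0.42 across genes. With 1 array left out, between 0 and 98 genes were called higher and between 0 and 76 lower, with 0 of each without control 1 (2713 at an unadjusted p under 0.05) or without control 2 (2963). The cholesterol median then ran from -0.33 (without control 2) to -0.02 (without control 1). Cholesterol genes with PGE2 below control numbered 13 to 20 of 30, against 37.8% to 45.0% of all tested genes. Those above numbered 7 to 13, against 31.1% to 41.5%. The 20 and the 45.0% came without control 2, the 13 above and the 41.5% without control 1. Fewer arrays make such counts easier to reach. Changes that turned sign ran from -0.29 to 0.49 in Pmvk, -1.15 to 0.0278 in Mvd, -0.36 to 0.49 in Fdft1, -0.28 to 0.86 in Tm7sf2, -0.27 to 0.0049 in Lbr, -0.27 to 0.57 in Ebp, -0.52 to 0.15 in Sc5d, -0.40 to 0.0636 in Dhcr7, -0.65 to 0.22 in Mylip, -0.14 to 0.26 in Nr1h2 and -0.16 to 0.94 in Abca1. The cause was not tested. Planned normexp fits on mean signals were not run. Values near background, as for Abcg1, limit what can be said of efflux.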
